A study of Mus musculus with 3 samples.

Results

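The cells described here were the mouse mammary tumour cells with the most RNA of 4 p53 target genes, and they numbered 316 of 7620 cells in the series. Eligible cells came from collagen I or Matrigel cultures, had at least 5000 UMIs (unique molecular identifiers, each standing for 1 captured RNA molecule) and had at least 1 UMI of Epcam, an epithelial adhesion gene. The UMIs of Mdm2, Ccng1, Phlda3 and Zmat3 were summed per 10000 UMIs of the cell, and the top 5% within each day, both matrices together, were taken. This gave 105 of 2101 eligible cells on day 0, 154 of 3074 on day 3 and 57 of 1138 on day 5, which are called high-score cells below and set against the 5997 remaining eligible cells of the same days.

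All tumour cells came from 4 FVB mice aged 25 to 30 weeks with primary tumours of 20 mm, each carrying the C3(1)-Tag transgene, in which the C3(1) promoter drives the SV40 large T antigen. Fresh tumour pieces were plated in collagen I or in Matrigel (an extract of basement membrane rich in laminin) in a medium with 2.5 nM FGF2, and were taken after 12 hours (day 0), 3 days or 5 days. The animals were marked by MULTI-seq barcodes and pooled with the mouse carcinoma line 4T1 into a single 10x Genomics library per day, so day, pool and culture time cannot be told apart. High-score and remaining cells thus shared transgene, strain, medium and pool, but not always the same mix of the matrices.

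The p53 protein is a transcription factor that DNA damage and other stresses stabilise, and it switches on genes of cell cycle arrest, cell death, DNA repair and metabolism. One of its targets, Mdm2, encodes the ubiquitin ligase that sends p53 for degradation, which closes a feedback loop. The SV40 large T antigen binds p53 and holds it from many of its target genes. The p53 protein binds DNA as a tetramer over a pair of 10-base half-sites.

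The promoter windows of 5 genes that the comparison turns on are shown because each holds at least 1 exact match to the p53 half-site consensus. Each window runs from 250 bases before to 50 bases after the RefSeq transcript start (assembly GRCm38.p6), 5′ to 3′ along the gene's strand, with the half-site matches in capitals. Mdm2 (chr10:117710709-117711008, minus strand) and Ccng1 (chr11:40755237-40755536, minus strand), which encodes cyclin G1, were used to choose the cells. Cdkn1a (chr17:29090729-29091028, plus strand), which encodes the cyclin-dependent kinase inhibitor p21, Sncg (chr14:34374620-34374919, minus strand), which encodes gamma-synuclein, and Ddit4l (chr3:137623422-137623721, plus strand), which encodes an inhibitor of mTORC1 signalling, were not.
Mdm2: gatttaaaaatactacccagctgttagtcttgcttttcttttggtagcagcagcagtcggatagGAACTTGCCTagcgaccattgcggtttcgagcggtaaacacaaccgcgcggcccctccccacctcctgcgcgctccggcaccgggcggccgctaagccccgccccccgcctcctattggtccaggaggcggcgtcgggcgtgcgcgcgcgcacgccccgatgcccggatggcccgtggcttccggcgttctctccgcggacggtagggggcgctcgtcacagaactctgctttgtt
Ccng1: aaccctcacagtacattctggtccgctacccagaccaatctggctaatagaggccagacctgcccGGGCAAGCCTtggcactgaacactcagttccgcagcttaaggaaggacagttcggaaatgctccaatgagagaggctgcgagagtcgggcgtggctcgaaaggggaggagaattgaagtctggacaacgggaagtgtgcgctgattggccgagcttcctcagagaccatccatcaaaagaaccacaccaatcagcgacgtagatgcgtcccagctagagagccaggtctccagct
Cdkn1a: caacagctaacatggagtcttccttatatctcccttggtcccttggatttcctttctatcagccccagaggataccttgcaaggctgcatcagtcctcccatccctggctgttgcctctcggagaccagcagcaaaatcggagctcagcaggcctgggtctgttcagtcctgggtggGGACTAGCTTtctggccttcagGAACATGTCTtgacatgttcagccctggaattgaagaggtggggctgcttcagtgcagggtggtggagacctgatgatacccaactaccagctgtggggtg
Sncg: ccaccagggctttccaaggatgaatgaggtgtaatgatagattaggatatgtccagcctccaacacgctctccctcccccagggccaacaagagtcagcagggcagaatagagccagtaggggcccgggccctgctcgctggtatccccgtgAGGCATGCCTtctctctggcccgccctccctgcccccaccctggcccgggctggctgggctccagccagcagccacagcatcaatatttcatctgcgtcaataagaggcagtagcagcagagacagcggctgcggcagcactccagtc
Ddit4l: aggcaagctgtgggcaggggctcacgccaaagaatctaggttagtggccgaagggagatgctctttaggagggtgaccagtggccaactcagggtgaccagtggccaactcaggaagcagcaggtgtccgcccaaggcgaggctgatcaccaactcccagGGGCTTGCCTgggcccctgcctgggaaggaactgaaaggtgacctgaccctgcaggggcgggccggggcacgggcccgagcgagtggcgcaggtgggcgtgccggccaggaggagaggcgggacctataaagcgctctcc
The match starts at base -186 of Mdm2, -185 of Ccng1, -98 of Sncg and -90 of Ddit4l relative to the transcript start, and the pair in Cdkn1a starts at -73 and -51. The search covered both strands of 32851 RefSeq promoter windows of 27025 genes, with the windows of 1 chromosome left out. Of these genes, 2582 (9.55%) held a match in at least 1 window. Of 62 p53 target genes outside the rule, 50 had a window, and 14 of the 50 (28.0%) held a match. Of the 39 among them that rose in the test below, 12 (30.8%) held one. A pair of half-sites at most 13 bases apart was found in 20 of all genes (0.074%), and Cdkn1a was the 1 case among the 50. Phlda3 held no match in this window, and Zmat3 was not in the promoter table. A match in letters is not a measured binding site.

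The lowest score of a high-score cell and the highest of a remaining cell were 11.7 and 11.5 UMIs per 10000 on day 0. They were 25.93 and 25.88 on day 3 and 21.43 and 21.42 on the last day. Median scores were 21.6, 32.9 and 29.1 in high-score cells and 1.76, 3.32 and 2.67 in remaining cells on days 0, 3 and 5, and the highest scores were 227, 211 and 133. On days 0, 3 and 5, 23, 74 and 20 high-score cells lay within 125% of the threshold and 24, 112 and 25 remaining cells at 80% of it or more. When every cell was first thinned to 5000 UMIs, 252 of the 316 were chosen again.

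**Figure D1:**
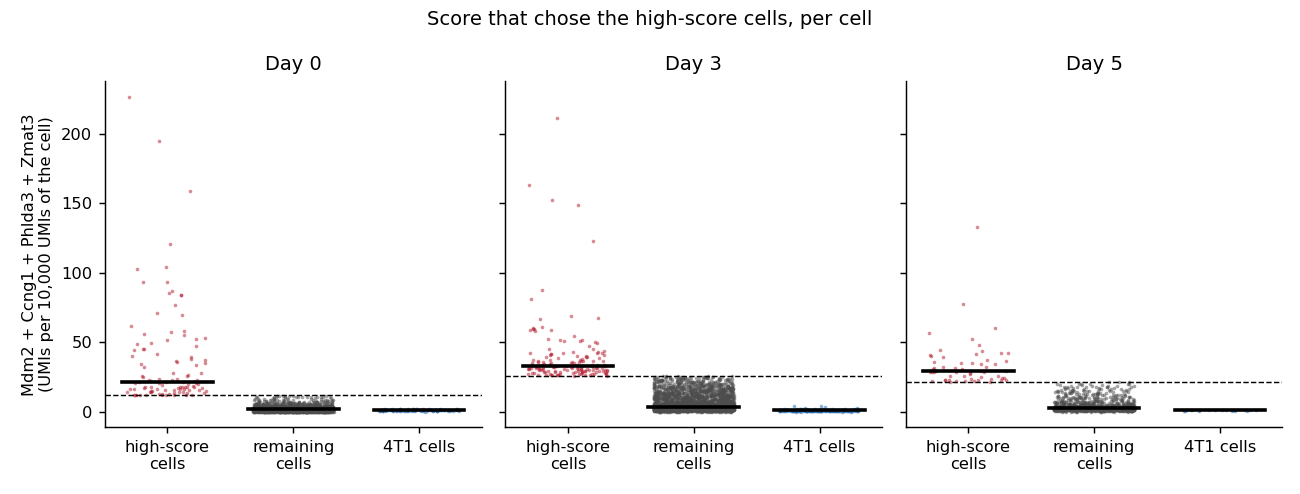
Score of each cell (summed Mdm2, Ccng1, Phlda3 and Zmat3 UMIs per 10000 UMIs, vertical axis) on days 0, 3 and 5, for high-score cells, remaining cells and 4T1 cells, with bars at the medians and the day's threshold as a dashed line. High-score medians of 21.6, 32.9 and 29.1 stood over remaining medians of 1.76, 3.32 and 2.67, and none of the 300 4T1 cells with at least 5000 UMIs and an Epcam UMI reached a threshold.

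Cells of the 4T1 line, known to lack p53, served as a within-pool contrast that the rule did not include, and 300 of them had at least 5000 UMIs and a UMI of Epcam. Their median scores were 0.991, 0.869 and 0.897 on days 0, 3 and 5, below those of the remaining tumour cells, and the highest of these cells had 4.09. RNA of Trp53, the p53 gene, was still found in 26.8%, 23.4% and 36.8% of 4T1 cells thinned to 5000 UMIs. In thinned remaining cells the shares were 60.8%, 51.9% and 58.5%. The cause of the low 4T1 scores was not tested. High-score cells had lower median depths than the rest: their UMI counts were 17350, 33788 and 55050, against 19868, 38172 and 55398 in remaining cells. The mitochondrial share of UMIs was 2.41%, 4.40% and 6.45% in high-score cells and 2.57%, 3.83% and 5.48% in remaining cells, and its part in the results was not tested. No doublet caller was run, and 11 cell barcodes occurred in more than 1 day's library. An epithelial marker UMI was found in 314 of the 316 cells, and 1 of them lay in a cluster of macrophage markers.

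Of the 4 rule genes, described here without a test, Mdm2 supplied the most UMIs of the 4 in 222 high-score cells and Phlda3, a repressor of the kinase Akt, in 87. Ccng1 led in 7, and Zmat3, an RNA-binding zinc finger gene, in 0. Every high-score cell had Mdm2, while 5 had no UMI of Phlda3, 12 none of Ccng1 and 95 none of Zmat3. Summed per mouse and day, Mdm2 had 975 to 2827 CPM (UMIs of the gene scaled to 1000000 UMIs of the sum; median 1667) in the 10 high-score sums and 78.1 to 273 (median 108) in the 10 remaining sums. Phlda3 had 784 to 1476 CPM (median 933) against 95.9 to 416 CPM (median 261), Ccng1 353 to 672 CPM (median 460) against 13 to 115 CPM (median 73.2), and Zmat3 20.1 to 136 CPM (median 99.9) against 5.39 to 30.3 CPM (median 15.6).

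The rule genes rose together even when the gene in question did not choose the cells. When the cells were chosen again on the other 3 genes, each left-out gene was higher in the chosen cells in 10 of 10 pairs of mouse and day. The left-out difference, as log2 fold change ± SE averaged over the 3 days, was 3.39 ± 0.13 for Mdm2 (adjusted p = 4.84e-14), 3.21 ± 0.10 for Ccng1 (adjusted p = 3.65e-15), 2.03 ± 0.10 for Phlda3 (adjusted p = 4.11e-13) and 2.55 ± 0.14 for Zmat3 (adjusted p = 7.7e-12). These choices shared 228, 295, 269 and 306 of their 316 cells with the high-score cells. Here and below, the SE of a log2 fold change comes from the fit, treats the pairs as separate and is not a spread over mice. The left-out Ccng1 difference was largest on day 0, at 4.75 ± 0.17, against 2.11 ± 0.14 on day 3 and 2.78 ± 0.21 on day 5.

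High-score cells and remaining cells of the same mouse and day were then compared over all genes outside the rule. The UMIs of each class were summed, which gave 10 pairs: 4 mice on day 0, 4 on day 3 and mice 2 and 3 on day 5, where mouse 1 had 1 high-score cell and mouse 4 no cells. The high-score sums held 14 to 66 cells and 244896 to 2247973 UMIs, and the remaining sums 370 to 1206 cells and 8580639 to 49530186 UMIs. A gene was called at an adjusted p below 0.05. Averaged over days, 4255 of 13485 genes were called (31.6%), 1593 higher (11.8%) and 2662 lower (19.7%) in high-score cells. By day, 13.5% of genes were called on day 0 (5.34% higher, 8.12% lower), 18.7% on day 3 (7.99% higher, 10.7% lower) and 7.76% on day 5 (4.11% higher, 3.66% lower). In every pair, 553 genes (4.1%) were higher and 1254 (9.3%) lower. The lower calls were found with the 10 pairs taken as separate. With days averaged to 1 value per mouse, 401 genes were called, 400 of them higher and 1 lower. That setting also used another test, the moderated t test of limma on 4 mice. Its unadjusted p was under 0.05 for 4267 genes, against 5433 by edgeR's test in the main fit. The reason for the lost calls was not tested. In a fit without the term that pairs the sums, 635, 1068 and 208 genes were called on days 0, 3 and 5, and 2539 averaged over days. Each sum joined both matrices, so the mix of matrices could differ between the classes of a pair, which the pairing does not remove. With sums by matrix, paired within the matrix, 3659 of 12388 genes were called averaged over days. Another scaling, RLE size factors, turned the day 0 split of 720 higher and 1095 lower into 864 higher and 628 lower and moved the median of all genes on day 0 to -0.0011, against -0.10 on the log2 scale.

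The p53 target genes outside the rule rose broadly in high-score cells. Against 11.8% of all genes that rose and 19.7% that fell, 46 of the 62 tested rose, 4 fell and 12 did not pass averaged over days. Their median log2 fold change was 1.47 against -0.09 over all genes. By day, 43, 44 and 40 rose and 1, 2 and 2 fell on days 0, 3 and 5, and 39 rose on all 3 days. In every pair, 38 were higher in high-score cells. Averaging days to 1 value per mouse left 30 that rose and 0 that fell (median 1.29). Without the cluster led by Mdm2, described below, 45 rose and 3 fell.

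**Figure D2:**
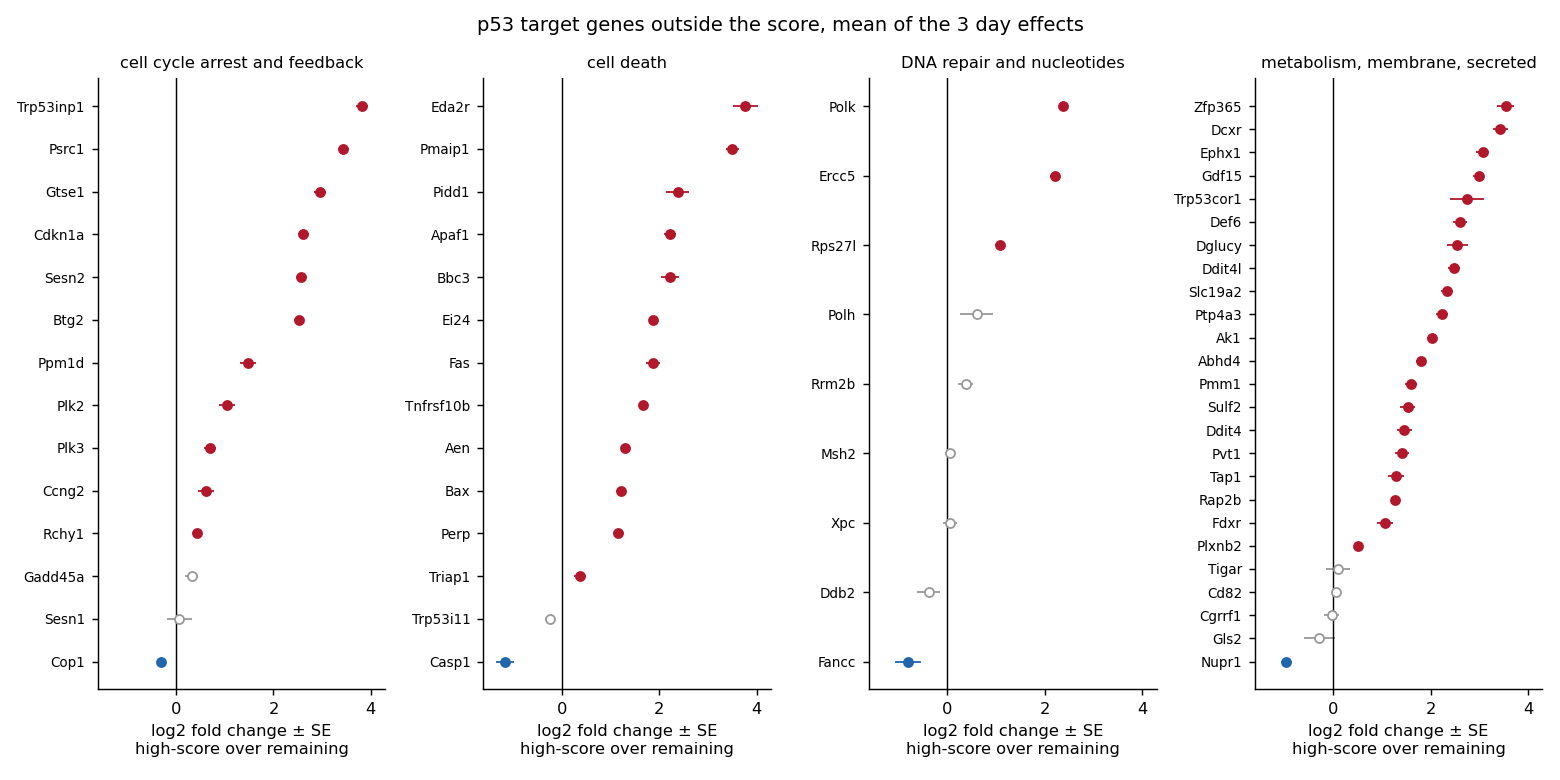
Log2 fold change, high-score over remaining cells, averaged over days with its SE, for the p53 target genes outside the rule, grouped by role, with red for genes that rose, blue for genes that fell and open grey points for genes that did not pass. Of the 62 genes, 46 rose, 4 fell and 12 did not pass, and the values of Trp53inp1 (3.82), Eda2r (3.77) and Pmaip1 (3.50) lie at the upper end.

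Single cells showed the same shift. The summed RNA of the 62 targets had medians of 11010, 14160 and 11220 CPM per cell in high-score cells and 3283, 3591 and 2990 CPM in remaining cells on days 0, 3 and 5. On these days 104 of 105, 154 of 154 and 57 of 57 high-score cells exceeded the median of the remaining cells, and 87, 142 and 56 exceeded their 90th percentile. High-score cells led by Mdm2 and those led by Phlda3 had the following summed levels of the 62 targets: 14336 CPM (led by Mdm2) and 14016 CPM (led by Phlda3) on day 3, and 11649 and 11418 CPM in the same order on day 5. On day 0 the 67 cells led by Mdm2 had 14423 CPM and the 35 led by Phlda3 8723 CPM, which were not tested against each other.

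Among the targets that halt the cell cycle or feed back on p53, 11 of 14 rose, 1 fell and 2 did not pass (median 1.26). Cdkn1a, the gene of p21, had 1564 to 3674 CPM (median 2336) in high-score sums and 241 to 774 CPM (median 431) in remaining sums, without overlap, and its log2 difference was 2.61 ± 0.11 (adjusted p = 3.3e-13). After thinning to 5000 UMIs, 97.1%, 100% and 98.2% of high-score cells had a Cdkn1a UMI on days 0, 3 and 5, against 65.8%, 62.6% and 41.4% of remaining cells (98.1%, 100% and 100% against 86.1%, 87.1% and 78.5% before thinning). In 4T1 cells the thinned shares were 5.16%, 9.78% and 10.5%, at median depths of 84836, 70524 and 142627 UMIs before thinning. Trp53inp1, a stress protein that acts with p53, had 149 to 258 CPM (median 186) in high-score sums and 4.86 to 29.5 CPM (median 20.3) in remaining sums, a difference of 3.82 ± 0.12 (adjusted p = 4.85e-15). A Trp53inp1 UMI was found in 55.2%, 51.3% and 56.1% of thinned high-score cells, against 2.36%, 8.84% and 7.68% of remaining cells (78.1%, 94.2% and 98.2% against 8.32%, 34.4% and 36.9% before thinning), and in 1 of 97, 3 of 184 and 0 of 19 4T1 cells, where a count of 0 allows up to 15.8%.

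The antiproliferative gene Btg2 rose by 2.53 ± 0.10 on the log2 scale (adjusted p = 2.02e-13), and the sestrin Sesn2, a brake on mTORC1, by 2.57 ± 0.11 (adjusted p = 6.6e-13). Psrc1, a microtubule-binding protein gene, rose by 3.44 ± 0.11, Gtse1, whose protein moves p53 out of the nucleus, by 2.96 ± 0.12, and Ppm1d, the phosphatase that switches the damage response off, by 1.47 ± 0.16. The ubiquitin ligase Cop1 was the gene of this group that fell, by 0.30 ± 0.09 (adjusted p = 0.0145), a call that was lost in several other settings. Gadd45a, a damage-inducible growth arrest gene, had a difference of 0.32 ± 0.13 (adjusted p = 0.0653). With 1 value per mouse Trp53inp1, Psrc1, Ppm1d and Cop1 did not pass, while Cdkn1a, Btg2, Sesn2 and Gtse1 did.

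Among the targets of cell death, 12 of 14 rose, 1 fell and 1 did not pass (median 1.77). Pmaip1, which encodes the BH3-only protein Noxa, had 45.3 to 345 CPM (median 123) in high-score sums and 4.25 to 20.1 CPM (median 12.1) in remaining sums, and its difference was 3.50 ± 0.14 (adjusted p = 2.02e-13). Its groups did not overlap. Bax, the pore-forming effector of the mitochondrial pathway, had 250 to 1007 CPM (median 678) in high-score sums and 135 to 478 CPM (median 263) in remaining sums, which overlap, though it was higher in 10 of 10 pairs (1.22 ± 0.10, adjusted p = 2.07e-08). Bbc3, which encodes Puma, rose by 2.22 ± 0.18, Apaf1, the scaffold of the apoptosome, by 2.23 ± 0.13, the death receptor gene Fas by 1.87 ± 0.15 and Eda2r, a receptor of the TNF receptor family, by 3.77 ± 0.26. Casp1, the inflammatory caspase, fell by 1.16 ± 0.18 (adjusted p = 6.3e-05). Eda2r and Casp1 did not pass with 1 value per mouse.

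**Figure D3:**
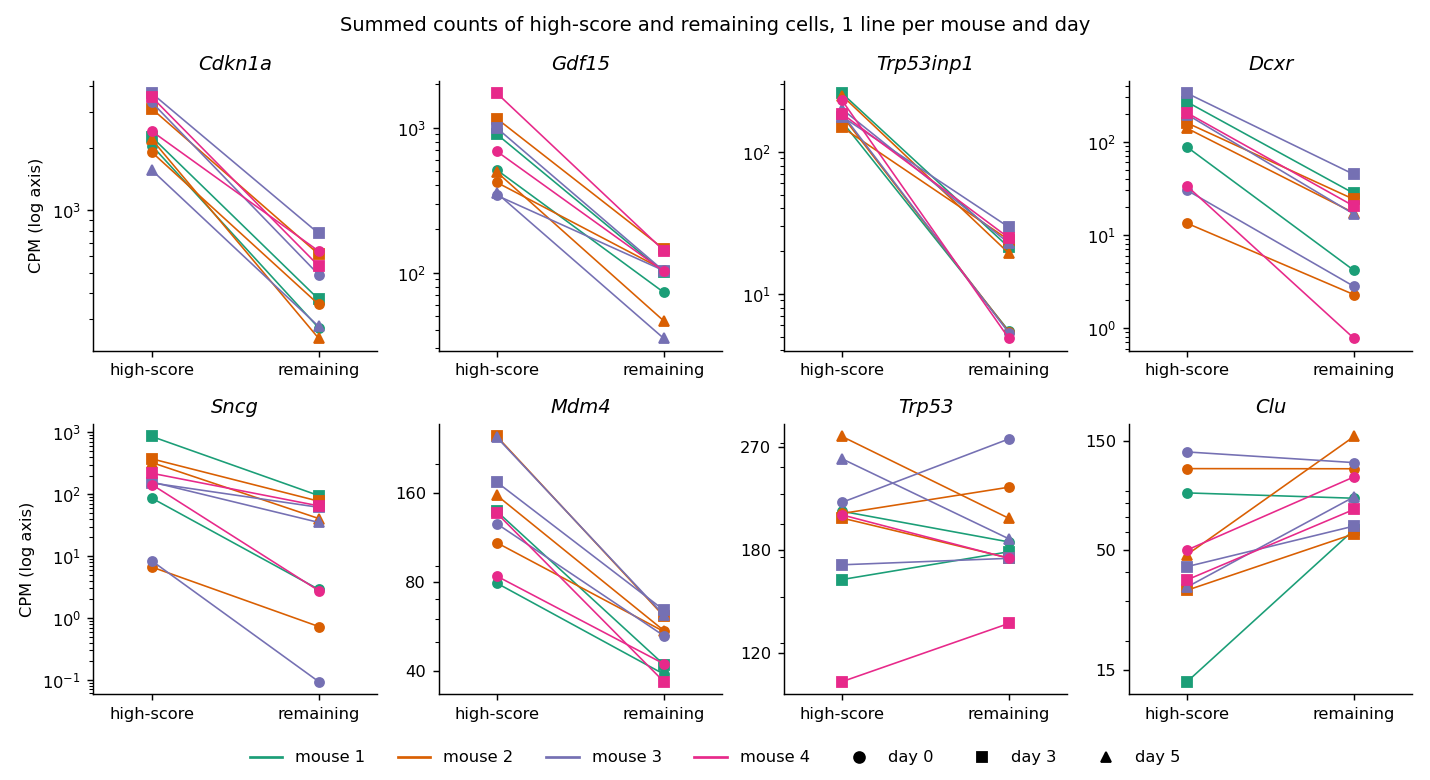
CPM of 8 genes (log axes) in the high-score sum and the remaining sum, with a line joining the 2 sums of each mouse and day, colours for mice and symbols for days. For Cdkn1a, Trp53inp1, Mdm4 and Gdf15 the high-score sums lie above every remaining sum, while Trp53 was higher in 5 of 10 pairs.

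The targets of DNA repair and nucleotide supply moved less as a group: 3 of 9 rose, 1 fell and 5 did not pass (median 0.37). The genes that rose were the translesion polymerase Polk (2.38 ± 0.09, adjusted p = 8.1e-14), the excision nuclease Ercc5 (2.20 ± 0.09, adjusted p = 4.35e-13) and Rps27l, a ribosomal protein S27 homologue (1.07 ± 0.10, adjusted p = 6.06e-08). Rps27l and Rps27 are alike in sequence, so its counts may be split with the parent gene and are uncertain. Ddb2, which recognises UV lesions, was low, with a median of 8.36 CPM in high-score sums and 10.1 CPM in remaining sums (-0.39 ± 0.23, adjusted p = 0.221). Fancc, of the Fanconi crosslink repair complex, fell by 0.81 ± 0.27 (adjusted p = 0.0286), a call that several other settings did not give.

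The targets with roles in metabolism, at the membrane or as secreted proteins included 20 of 25 that rose, 1 that fell and 4 that did not pass (median 1.59). Gdf15, a secreted stress cytokine, had 341 to 1733 CPM (median 600) in high-score sums and 35.1 to 146 CPM (median 102) in remaining sums, without overlap (2.99 ± 0.12, adjusted p = 1.06e-13). Ddit4l had 192 to 311 CPM (median 211) in high-score sums and 11.6 to 86.4 CPM (median 54.8) in remaining sums, also without overlap (2.48 ± 0.13, adjusted p = 6.55e-12). Dcxr, a carbonyl and xylulose reductase, had 13.3 to 332 CPM (median 149) in high-score sums and 0.773 to 44.6 CPM (median 16.9) in remaining sums (3.43 ± 0.15, adjusted p = 5.89e-13), and its groups overlap because both were low on day 0.

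Of the same group, the detoxifying epoxide hydrolase Ephx1 rose by 3.07 ± 0.13, the genome stability gene Zfp365 by 3.54 ± 0.18, adenylate kinase Ak1 by 2.03 ± 0.10, the long noncoding RNA Trp53cor1 near Cdkn1a by 2.74 ± 0.35 and the peptide transporter Tap1 by 1.28 ± 0.16. Nupr1, a stress-induced chromatin protein gene, fell by 0.97 ± 0.11. Dcxr, Zfp365, Trp53cor1, Tap1 and Nupr1 did not pass with 1 value per mouse.

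The p53 gene itself did not pass the test, and 1 of its regulators rose. Trp53 had 107 to 282 CPM (median 208) in high-score sums and 135 to 279 CPM (median 183) in remaining sums, was higher in 5 of 10 pairs and had a difference of 0.13 ± 0.09 (adjusted p = 0.289). Of 11 genes of the p53 family and its regulators, 1 rose, 3 fell and 7 did not pass, where 11.8% of all genes rose and 19.7% fell. These counts are near those shares and are no result about the group. The 1 that rose was Mdm4, an Mdm2 relative that masks the activation domain of p53, with 79.0 to 248 CPM (median 137) in high-score sums and 36.7 to 64.1 CPM (median 53.4) in remaining sums and no overlap (1.53 ± 0.09, adjusted p = 5.72e-11). Cdkn2a, whose Arf product restrains Mdm2, fell by 0.32 ± 0.09, Usp7, a deubiquitinase of Mdm2 and p53, fell by 0.28 ± 0.08 and the p53 relative Trp63 fell by 1.06 ± 0.33. These 3 falls did not pass with 1 value per mouse or in several other settings. Within 1000000 bases of Mdm2, 11 of 22 genes were tested, 2 rose and 4 fell, with a median of -0.09. Counts over so few genes were not tested against the shares over all genes.

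Of the 7 genes given as markers of these cells, Mdm2 and Ccng1 belong to the rule, and Gdf15, Ddit4l, Dcxr and Sncg rose. Sncg had 6.66 to 860 CPM (median 155) in high-score sums and 0.0932 to 95.2 CPM (median 37.8) in remaining sums (3.27 ± 0.19, adjusted p = 5.14e-11). It was higher in 10 of 10 pairs, but the groups overlap because mice 2 and 3 had low levels on day 0 in both classes. Clu, which encodes the secreted chaperone clusterin, went against the label: it had 13.4 to 134 CPM (median 45.1) in high-score sums and 58.9 to 156 CPM (median 84.7) in remaining sums, was lower in 7 of 10 pairs and fell by 0.84 ± 0.12 (adjusted p = 2.35e-05), though not with 1 value per mouse.

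Genes outside the target lists were also among those that rose most. Zfp750, a transcription factor of epidermal differentiation, rose by 3.66 ± 0.21, the small GTPase Rasl11a by 3.41 ± 0.21, the meiosis gene Tex15 by 3.18 ± 0.17 and Cd55, which protects cells from complement, by 3.12 ± 0.21. Each was higher in 10 of 10 pairs, and Zfp750 and Rasl11a did not pass with 1 value per mouse.

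The levels of the other p53 targets increased along the whole range of the score and not at its threshold alone. On day 0 the 62 targets had a mean of 3164 CPM below the 50th percentile of the score, 3701 CPM in the 50th to 75th percentile, 4297 CPM in the 75th to 90th, 5303 CPM in the 90th to 95th, 9236 CPM in the 95th to 98th and 16939 CPM above. On day 3 the same bins had 3058, 4878, 8482, 10770, 13862 and 16641 CPM. On day 5 they had 2694, 3448, 5453, 8868, 11645 and 12183 CPM. These are means over mice with at least 5 cells in the bin, 3 or 4 mice in the lowest bins and 2 or 3 in the highest, and they were not tested. The bin just below the threshold was closer to the lowest bin on day 0 than on days 3 and 5.

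**Figure D4:**
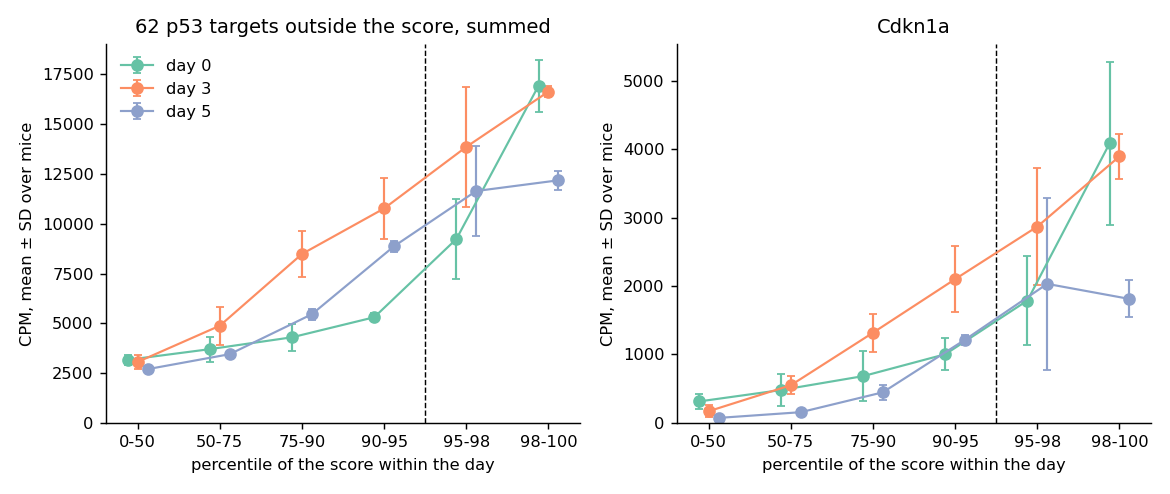
Summed CPM of the 62 p53 targets outside the rule (left) and of Cdkn1a (right), mean and SD over mice, against bins of the score percentile within days 0, 3 and 5, with a dashed line at the threshold. On day 0 the 4 lower bins span 3164 to 5303 CPM, and on day 3 they reach 10770 CPM.

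The difference between high-score and remaining cells changed with the day for few genes. Of 13485 genes, 55 (0.408%) had a different effect on day 3 than on day 0 (13 shifted upward, 0.0964%, and 42 downward, 0.311%), and 34 (0.252%) on day 5 than on day 0 (7 upward, 0.0519%, and 27 downward, 0.2%). Without the pairing term these counts were 9 and 3. Among p53 targets, Psrc1 averaged 184 ± 56.0, 147 ± 43.8 and 206 ± 24.1 CPM in high-score sums on days 0, 3 and 5 and 4.45 ± 0.624, 32.1 ± 7.73 and 29.9 ± 2.45 CPM in remaining sums (SD, n = 4, 4 and 2). Trp53inp1 averaged 190 ± 28.6, 193 ± 46.6 and 225 ± 34.7 CPM in high-score sums and 5.26 ± 0.275, 24.9 ± 3.43 and 21.0 ± 2.43 CPM in remaining sums. For both genes the remaining cells were lowest on day 0, by more than the SDs. Ddit4l was likewise lowest on day 0 in remaining cells, with 250 ± 49.4, 198 ± 5.84 and 254 ± 16.0 CPM in high-score sums and 17.1 ± 6.18, 68.8 ± 16.6 and 62.9 ± 8.68 CPM in remaining sums. Sncg differed in that both classes were lowest on day 0, with 61.3 ± 66.3, 401 ± 320 and 242 ± 119 CPM in high-score sums and 1.62 ± 1.42, 74.8 ± 15.2 and 37.8 ± 3.91 CPM in remaining sums.

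Averaged over days in the main fit, the cell cycle lists were called about as often as all genes, of which 31.6% were called. Their averaged counts are therefore no result about the cell cycle. Of 20 genes of S phase and replication, 1 rose, 6 fell and 13 did not pass (median -0.16), and of 20 genes of G2 and mitosis 1 rose, 5 fell and 14 did not pass (median -0.15), with no call in either list with 1 value per mouse. On day 3 alone 2 S phase and 5 G2 and mitosis genes fell, where 10.7% of all genes fell. For the top 10%, 4 and 12 fell in the same order, where 2480 of 12679 genes fell. With no filter on low counts 10 and 10 fell, where 3429 of 20536 genes fell. These counts thus depend on the setting. The proliferation marker Mki67 had a median of 124 CPM in high-score sums and 118 CPM in remaining sums (-0.18 ± 0.14, adjusted p = 0.38), and the topoisomerase Top2a 209 and 236 CPM (-0.13 ± 0.09, adjusted p = 0.348). The replication clamp Pcna, listed here for its S phase role, differed by -0.20 ± 0.09 (adjusted p = 0.105). The mitotic kinase Plk1 fell by 0.78 ± 0.14 and cyclin B1, Ccnb1, fell by 0.49 ± 0.13, while Rrm2, a subunit of ribonucleotide reductase, rose by 0.56 ± 0.11. None of these 3 passed with 1 value per mouse.

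Several lists of other stress genes were read against the 11.8% of all genes that rose and the 19.7% that fell. Of 12 immediate early and heat shock genes, 8 rose, 1 fell and 3 did not pass (median 0.58). By day 7, 2 and 0 of them rose on days 0, 3 and 5, where 5.34%, 7.99% and 4.11% of all genes rose. Egr1 and Jun, which encode growth factor-induced transcription factors, rose by 0.98 ± 0.12 and 0.70 ± 0.11. Of 16 genes of the ATF4 and amino acid response, 4 rose and 9 fell (median -0.57). The transcription factors Atf3 and Ddit3 of that response rose by 1.69 ± 0.21 and 0.91 ± 0.15, whereas the serine and asparagine synthesis genes Phgdh and Asns differed by -1.21 ± 0.14 and -0.88 ± 0.10. Of 12 NRF2 antioxidant genes 0 rose and 5 fell, of 15 interferon response genes 1 rose and 3 fell, and of 14 senescence-associated genes 2 rose and 4 fell. The interferon and senescence counts are near the shares over all genes and are no result about these lists. With 1 value per mouse none of these lists had a gene that fell, and the immediate early, ATF4 and senescence lists had 1 each that rose.

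Genes of hypoxia and glycolysis that passed the test were mostly lower in high-score cells: of 14, 1 rose, 7 fell and 6 did not pass (median -0.59), where 11.8% of all genes rose and 19.7% fell. Lactate dehydrogenase Ldha had a median of 378 CPM in high-score sums and 703 CPM in remaining sums (-1.03 ± 0.08, adjusted p = 7.8e-09), phosphoglycerate kinase Pgk1 369 and 629 CPM (-0.94 ± 0.09) and enolase Eno1 515 and 1102 CPM (-1.01 ± 0.10). Each was lower in 10 of 10 pairs, and none passed with 1 value per mouse.

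The lineage genes that were lower were mostly basal and secretory. Of 14 basal and myoepithelial genes, 1 rose, 11 fell and 2 did not pass (median -1.91), where 11.8% of all genes rose and 19.7% fell. On days 0, 3 and 5 the falls were 2, 10 and 8, where 8.12%, 10.7% and 3.66% of all genes fell. The day 0 count, with a median of -0.21, is near the share of that day and is no result about the list. Acta2, the smooth muscle actin of myoepithelial cells, had 21 UMIs in all high-score sums, 4 of which were at 0, and a median of 1.80 CPM there, against 52.9 CPM (0.221 to 501) in remaining sums (-6.06 ± 0.34, adjusted p = 2.73e-11). After thinning, 0 of 105 high-score cells had an Acta2 UMI on day 0, which allows a share of up to 2.86%, and 0.649% and 1.75% had one on days 3 and 5, against 1.05%, 6.30% and 7.03% of remaining cells (0.952%, 7.14% and 12.3% against 1.65%, 13.9% and 20.2% before thinning). Of the thinned 4T1 cells 0 had an Acta2 UMI, which allows up to 3.09%, 1.63% and 15.8% on days 0, 3 and 5. The day 0 shares therefore cannot be told apart at this depth.

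The basal keratin Krt14 fell by 1.43 ± 0.15 and was lower in 10 of 10 pairs. The basal keratins Krt17 and Krt5, of which Krt5 is the pairing partner of Krt14, fell, with differences of -1.16 ± 0.11 and -2.94 ± 0.45 averaged over days, but on day 0 they differed by 0.39 ± 0.16 (adjusted p = 0.11) and 0.39 ± 0.63 (adjusted p = 0.749). The basal member that rose was Itgb4, the integrin subunit of hemidesmosomes, by 0.97 ± 0.11. Of 15 luminal genes 2 rose, 5 fell and 8 did not pass (median 0.03), where 11.8% of all genes rose and 19.7% fell. The tight junction gene Cldn4 rose by 1.64 ± 0.12, and the simple keratin Krt8 fell by 0.43 ± 0.12. Itgb4 and Cldn4 passed with 1 value per mouse and the 4 keratins did not.

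Of 12 milk and acute-phase secreted protein genes, 0 rose, 10 fell and 2 did not pass (median -2.90), where 11.8% of all genes rose and 19.7% fell. On day 3 alone 1 of the 12 rose and 8 fell, where 7.99% of all genes rose and 10.7% fell. The median of this list depended on the setting, from -3.25 leaving out mouse 3 to -0.79 with DESeq2, where 5 fell. Without the clusters of other cell types and of 4T1 it was -1.19, and some settings tested fewer of these genes. The whey acidic protein family gene Wfdc18 fell by 4.34 ± 0.31 and the bacteriostatic lipocalin Lcn2 fell by 1.46 ± 0.15. Of 14 mesenchymal genes, 0 rose, 8 fell and 6 did not pass (median -0.99), where 11.8% of all genes rose and 19.7% fell. On days 0, 3 and 5, 6, 8 and 2 of them fell, where 8.12%, 10.7% and 3.66% of all genes fell. The falls averaged over days included the intermediate filament Vim (-1.36 ± 0.25), the matrix protein Sparc (-1.19 ± 0.13) and the galectin Lgals1 (-1.02 ± 0.12). The IGF-binding protein Igfbp5 fell by 4.35 ± 0.20 and matrix Gla protein Mgp fell by 2.84 ± 0.17. The transcription factor Runx3 fell by 1.85 ± 0.17, the sulfotransferase Chst2 fell by 1.64 ± 0.13 and the desaturase Scd2 fell by 1.60 ± 0.12. All 5 were lower in 10 of 10 pairs. With 1 value per mouse no basal, luminal, secretory or mesenchymal gene was called lower, and of the 10 genes just named Chst2 alone passed.

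Markers of other cell types were mostly lower in high-score sums. The 8 macrophage markers summed to 2.34 to 122 CPM (median 22.0) in high-score sums and 6.04 to 182 CPM (median 85.9) in remaining sums, the fibroblast markers to 0 to 37.0 CPM (median 4.17) and 5.02 to 96.2 CPM (median 10.6), and the neutrophil markers to 0 to 217 CPM (median 34.4) and 6.08 to 356 CPM (median 104). In high-score sums the fibroblast marker Lum, the neutrophil marker Csf3r, the T cell markers Cd3e, Cd3g and Cd2, the B cell markers Cd79b and Ms4a1 and the endothelial markers Cdh5 and Emcn were at 0. The T and NK, B and endothelial markers had medians of only 0.42, 0.60 and 1.76 CPM in the much larger remaining sums. Zeros in the high-score sums therefore do not show a lower level of these 3 sets, and the endothelial median there was 1.60 CPM. Pericyte markers summed to 11.7 to 49.0 CPM (median 32.1) in high-score sums and 3.81 to 19.5 CPM (median 9.52) in remaining sums, which came from Notch3, a Notch receptor gene that rose by 2.55 ± 0.22, while the pericyte marker Rgs5 was at 0. Of the macrophage markers Cd68, a lysosomal membrane protein, rose by 1.4 ± 0.20, although not with 1 value per mouse. Leaving out the clusters of other cell types and of 4T1 left 46 p53 targets higher and 5 lower.

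In a clustering of all cells the high-score cells lay in 19 of 22 clusters. A cluster led by Mdm2, Dcxr, Fst and Sncg held 92 of the 316 (29.1%) and came from all 4 mice, with 17, 57 and 18 high-score cells on days 0, 3 and 5. These were 92 of its 178 eligible cells. The next largest numbers came mostly from single mice. A cluster led by Mrps35 and Ppfibp1 held 45, of which 33 were from mouse 2, and a cluster led by Cmas and C2cd5 held 39, of which 37 were from mouse 3. A cluster led by the immediate early genes Cyr61 and Dusp1 held 31, of which 28 were from day 0, and a cluster led by Dcpp1 held 28, all from day 0. The clustering used the rule genes, so these counts only describe where the cells lay.

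High-score cells came from both matrices. On day 0 their share was higher in collagen in every mouse, a difference that did not hold after adjustment. They were 7.16 ± 1.50% of eligible collagen cells and 3.62 ± 0.86% of eligible Matrigel cells (SD, n = 4 mice), a difference of 3.54 points that was positive in 4 of 4 mice. An exact two-sided permutation test gave p = 0.0286, the smallest it can give with 4 against 4, which became 0.0858 after adjustment over 3 days, and the exact paired test gave its smallest possible p of 0.125. The difference was 1.99 points when the score was thinned to 5000 UMIs, 1.09 points for the top 2% and 2.18 points for cells of at least 10000 UMIs.

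On day 3 the shares were 4.13 ± 2.90% in collagen and 3.83 ± 1.48% in Matrigel (SD, n = 4 mice), higher in collagen in 1 of 4 mice (exact permutation p = 0.857). On day 5 they were 5.43 ± 0.967% and 3.31 ± 0.862% (SD, n = 2 mice), where the smallest possible exact p is 0.333. Collagenase freed the cells from collagen and cold EDTA dissolved the Matrigel, so matrix and release method cannot be told apart.

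**Figure D5:**
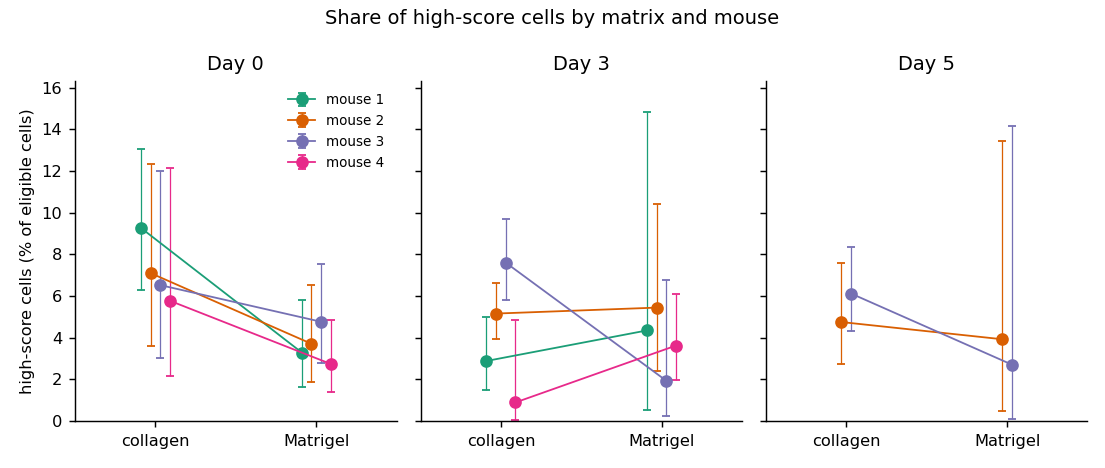
Share of eligible cells that were high-score cells (percent) in collagen and in Matrigel for each mouse (coloured points joined by a line) on days 0, 3 and 5, with exact 95% binomial intervals. On day 0 all 4 mice lie higher in collagen (mean 7.16%) than in Matrigel (mean 3.62%), and on day 3 1 of 4 does.

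By mouse, both matrices together, high-score cells were 6.17%, 4.87%, 5.25% and 3.36% of eligible cells of mice 1 to 4 on day 0 and 3.02%, 5.19%, 6.92% and 2.97% on day 3. On day 5 they were 0.926% (1 of 108 cells), 4.64% and 5.92% of the cells of mice 1 to 3. The order of the mice was not the same on the different days. The genes that set high-score cells apart were compared between the matrices on days 0 and 3: 15.9% of 12291 genes were called within collagen and 10.6% within Matrigel, and 0 (0.0%) differed between them by edgeR's test, with 488 at an unadjusted p under 0.05. The smallest adjusted p was 0.112, for Cd68. On day 3 this test held collagen pairs of mice 1, 2 and 3 and Matrigel pairs of mice 2 and 4. The other sums of that day had fewer than 5 high-score cells. With so few pairs, the count of 0 does not show that the genes were the same in both matrices.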

How the data were processed

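The deposited matrix holds UMI counts per gene and cell (39668312 entries, 269987304 UMIs), made by the authors from 10x Genomics 3' v2 libraries; tools listed in the submitters' processing notes are Scanpy 1.4.4 and Cell Ranger 3.0.2, with build GRCm38/mm10. The deposited annotation gives mouse, matrix and day of each cell and the mitochondrial fraction of its counts, as the authors computed it. It calls the first time point D1, which was taken as day 0 by inference. Annotation release and doublet treatment are not given in the sources used here.

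Cells were chosen as described in the report, and the members, gene lists and tests were chosen with earlier results of these data known. Counts were summed per mouse, day and class (at least 5 cells in both classes) and tested with edgeR 4.0.16 (R 4.3.3): TMM scaling, filterByExpr, a quasi-likelihood F test with a term for each mouse and day, and Benjamini-Hochberg adjustment over all 13490 genes of the fit (common dispersion 0.0242, 7 residual degrees of freedom, prior degrees of freedom 13.1). The rule genes and Epcam were part of the adjustment but were left out of the counts, which cover 13485 genes. Both sums of a pair came from the same animal and pool, and their deviations correlated at 0.165 to 0.502 in all 10 pairs. Pairs of different days share mice, so p-values of the averaged effect treat them as more independent than they are; 1 value per mouse was an alternative. Log2 fold changes are high-score over remaining cells. Their SEs are the size of the log2 fold change over the square root of the F statistic. They treat pairs as separate too and are no spread over mice. The replicate is the mouse.

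Genes were named by rule: the 12 highest and 12 lowest called genes of at least 20 CPM with 1 sign in every pair, up to 6 members of each list and the markers; the text gives a selection of 75 followed through all alternatives. Coordinates and names came from GENCODE vM21 (20574 of 20605 identifiers matched), promoters from RefSeq. Intervals and limits of shares cover counting error only. Clusters came from Scanpy 1.11.5 and leidenalg 0.10.2, and tests of shares from SciPy 1.17.1 (Python 3.11.15, NumPy 2.4.6, pandas 2.3.3). An alternative test came from DESeq2 1.42.0, and figures from matplotlib 3.10.9. The test with 1 value per mouse was the moderated t test of limma 3.58.1. It used each mouse's log2 CPM differences between the classes, averaged over days. The fit was tested on simulated data. Alternatives covered scaling, filters, depth, the size of the top share and leaving out each mouse.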

Additional observations from a re-analysis of the deposited data

Results flagged for a closer look

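For 16 of the 75 genes followed, the difference between high-score and remaining cells changed with the day by edgeR's test of the change itself (adjusted p under 0.05). All values are changes of the log2 fold change relative to day 0, and day and pool cannot be told apart. Among p53 targets the difference was smaller later: Psrc1 changed by -3.19 on day 3 and -2.58 on day 5, Ephx1 by -2.59 and -2.26, Ddit4l by -2.37 and -1.88, Trp53inp1 by -2.23 and -1.73, Gtse1 by -1.89 and -1.45, and Ak1 by -1.10 and -1.28. Zfp365 changed by -1.98 and Polk by -0.87 on day 3. The marker Sncg changed by -2.95 on day 3 and -2.50 on day 5.

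Among genes with a negative difference on day 0, the difference grew. Wfdc18 changed by -3.99 on day 3 and -3.81 on day 5, Igfbp5 by -3.46 and -4.14, and Mgp by -1.87 and -3.91. The keratin Krt17 changed by -2.54 and -2.10, Krt5 by -6.34 on day 5 and Ccnb1 by -1.34 on day 3. Krt17, Krt5 and Ccnb1 had differences of 0.39, 0.39 and 0.22 on day 0 and negative ones on days 3 and 5. Cldn4 went the other way, by 1.13 on day 3 and 1.64 on day 5.

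A single sum stood apart from the other 3 in 2 of 36 groups examined, where chance flags about 1 in 20. The remaining cells of 1 mouse had 73.1 CPM of Gdf15 on day 0, the lowest of 4, and the remaining cells of 1 mouse had 135 CPM of Trp53 on day 3, the lowest of 4.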

How the results depend on the processing

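Calls over 13485 genes were 1815 on day 0, 2517 on day 3, 1047 on day 5 and 4255 averaged over days. In a fit with no replicate block (no term pairing the sums of a mouse and day) they were 635, 1068, 208 and 2539, and with cells thinned to 5000 UMIs 840, 1255, 271 and 2079. With 1 value per mouse the average gave 401. Collagen cells alone, chosen as a setting after seeing the data, gave 818, 1217 and 654 on days 0, 3 and 5, and leaving out the cluster led by Mdm2, likewise chosen, 1043, 1581 and 684. The top 10% gave 1083 on day 0, the top 2% 1070 on day 3 and 665 on day 5, sums by matrix 568 and no filter on low counts 1650 on day 5. Leaving out each mouse gave 1244 to 1302 on day 0, 1821 to 2347 on day 3, 535 to 1090 on day 5 and 2775 to 3832 averaged, with both lowest averaged and day 5 counts without mouse 2. Leaving out mouse 2 or 3 leaves 1 pair on day 5, which is assumed to vary like the pairs of the other days. The cause of these shifts was not tested.

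The day 3 minus day 0 count of 55 was 88 with DESeq2, 10 in collagen alone, 318 with no filter, 9 with no replicate block, 33 with sums by matrix, 126 for the top 10%, 35 for the top 2% and 35 to 201 leaving out each mouse (201 without mouse 3, 35 without mouse 4). The day 5 minus day 0 count of 34 was 54, 6, 260, 3, 14 and 114 under the first 6 of these and 26 to 136 leaving out each mouse (136 without mouse 3). The matrix test had 1 to 9 calls leaving out each mouse and 0 with no replicate block.

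Leaving out each mouse, left-out rule genes stayed within 3.25 to 3.44 (Mdm2), 3.06 to 3.29 (Ccng1), 1.90 to 2.06 (Phlda3) and 2.42 to 2.65 (Zmat3). The day 0 share difference was 1.99 points after thinning the score, 1.09 for the top 2%, 2.18 for cells of at least 10000 UMIs and 2.73 to 4.14 leaving out each mouse. On day 3 it was -0.125 for the top 2% and -1.50 to 1.31 leaving out each mouse, and on day 5 -0.285 for the top 2%. Of 1500 values of the 75 genes, 1396 kept their side of the threshold, 92 lost it, 9 gained it and 3 reversed: Gadd45a to -0.033 with thinned cells, Ddb2 to 0.0081 for the top 10% and Trp53 to -0.013 without the cluster led by Mdm2. With 1 value per mouse 44 of the 75 lost their call, Clu among them.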
